A study of Mus musculus with 4 samples.

Results

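Among transcripts that the array carries without a curated RefSeq name, 17 read lower in cardiac endothelial cells of G2-EC-KO mice than in those of control mice. They were chosen from 13447 probes whose accession does not begin with NM_, NR_ or XM_, out of 41174 non-control probes in all. Of these unnamed probes, 5645 were well above background on both control arrays, which is the scanner software's flag for a spot clearly brighter than its surroundings. A transcript was taken when its highest G2-EC-KO value lay at least 0.8 below its lowest control value, in log2 units of the processed signal relative to the 75th percentile of the array. This distance is called the gap. The share of eligible unnamed probes taken by it was 0.301%. Since the gap between the groups chose the 17 transcripts, their differences between the groups are given as a description and with no test.

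RNA of endothelial cells from the hearts of adult mice was measured with 1 Agilent 1-colour array for each of 4 samples. The labels give 2 control samples from wild type mice and 2 samples labelled G2-EC-KO, described as a Gata2 knock out. The labels give no strain, no exact age, no sex, no promoter that drives the deletion and no number of animals per sample. Nothing in them says that the replicates came from separate animals, so the spread between replicates may be technical. Precision is limited by there being 2 arrays in each group.

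GATA2 is a zinc finger transcription factor that binds GATA motifs in regulatory DNA and acts in blood and endothelial development. Transcription factors act on non-coding as well as coding genes, and many transcripts of a cell are long RNAs with no protein product. Arrays of this generation carried such RNAs as anonymous cDNA clones, expressed sequence tags and gene predictions, beside probes for curated genes. By its title the study concerns secreted lncRNAs, and probes without a curated RefSeq name can include lncRNAs. The lack of such a name does not make a transcript non-coding. Whether the transcripts described here code for protein was not examined.

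The probes for the targeted gene did not check the labels. Gata2 probe A_51_P516625 read 1.86 and 2.17 in control and 2.17 and 2.46 in G2-EC-KO. Probe A_52_P233441 read 1.54 and 1.75 in control and 1.72 and 1.91 in G2-EC-KO. The values of G2-EC-KO are thus not lower at either probe. Which part of the gene was deleted is not given in the sources used here, and a probe outside that part checks nothing. Every direction given for the 17 transcripts rests on the labels.

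By kind of accession, 9 of the 17 were AK entries, which in mouse are full-length cDNA clones of the RIKEN collection, out of 3296 eligible. Another 4 were Ensembl transcripts (ENSMUST), out of 557 eligible. A further member was TC1641772, a tentative consensus assembled from expressed sequence tags, of 36 eligible. NAP038480-1 carries an identifier of the array design, of 766 eligible. BM216128 and AF001906 are other GenBank entries, of 873 eligible, BM216128 being an expressed sequence tag. None of the 117 eligible probes known by their probe name alone was among the 17. As percentages of the eligible probes, AK entries gave 0.273%, Ensembl transcripts 0.718% and other GenBank entries 0.229%. With 1 to 9 transcripts in a kind, these shares are counts of few. Of the 17 accessions, 0 matched a RefSeq transcript, symbol or synonym in the reference table used, so they are called by accession here. The rule leaves out NM_, NR_ and XM_ accessions, so that a match by RefSeq transcript could not occur. Whether the 17 belong to known genes was not assessed. Each was measured by 1 spot per array, and 0 had another probe for the same accession, so that each value rests on a single spot.

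All 17 transcripts were dim. Their mean control levels ran from -5.18 to -3.01, with a median of -4.40, where the eligible unnamed probes had a median of -2.57. Each of the 17 lay below that median. In intensity units, their processed signals ran from 31.9 to 207 on the control arrays and from 3.85 to 74.5 on the G2-EC-KO arrays. The lowest signal flagged as well above background was 31.7 for control replicate 1, 27.1 for control replicate 2, 24.0 for G2-EC-KO replicate 1 and 19.3 for G2-EC-KO replicate 2. Below such a signal the order of values carries little, and where the software found a spot not significantly positive it wrote a value close to the error estimate itself. This was so for 2 of the 17 spots on G2-EC-KO replicate 1 and for 3 on G2-EC-KO replicate 2, and for 0 on either control array.

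By whether the G2-EC-KO spots were well above background, which is called measured here, the 17 fall into 3 sets. A spot not measured in this sense can still be significantly positive. In 6 transcripts the spot was well above background on both G2-EC-KO arrays, so that the difference compares measured signals. In TC1641772 it was so on 1 of them. In the other 10 it was so on neither, and a floored fold is given. It sets the mean control level against the mean of G2-EC-KO values raised, where they were lower, to the weakest signal that the software flagged on that array. A spot can go unflagged above that signal. AK084485 did so on G2-EC-KO replicate 1, with 24.8 intensity units against a weakest flagged signal of 24.0. The floored fold also leaves out the spread between the control arrays, so it is not a lower bound. Values below are in log2 units relative to the 75th percentile of the array unless they are called folds, and the standard errors are those of the limma fit over all probes.

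**Figure D1:**
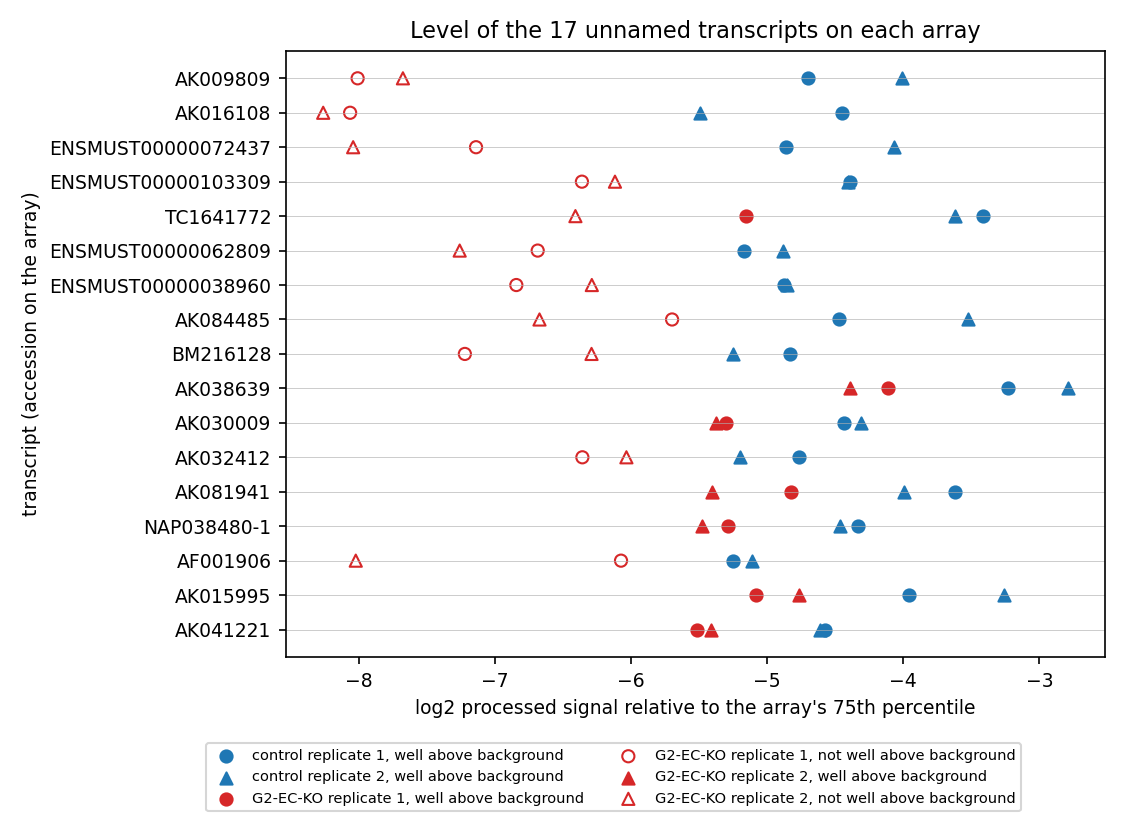
Level of each of the 17 transcripts on the 4 arrays, as log2 processed signal relative to the 75th percentile of the array; blue marks control, red G2-EC-KO, circles replicate 1, triangles replicate 2, and open symbols spots not well above background. The control values sit to the right of the G2-EC-KO values in each row, as the rule requires, and 10 rows have open symbols on both G2-EC-KO arrays.

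Among the 6 transcripts measured on all 4 arrays, the RIKEN cDNA AK038639 was the brightest. It read -3.23 and -2.79 in control and -4.11 and -4.39 in G2-EC-KO. Its level was thus 2.36-fold higher in control, with a log2 difference of -1.24 (SE 0.20), and its control mean exceeded that of 42.4% of the eligible unnamed probes. The cDNA AK015995 was next, with -3.95 and -3.26 in control against -5.08 and -4.76 in G2-EC-KO, a difference of -1.31 (SE 0.27). Here the control arrays lay further from each other than the G2-EC-KO arrays did. AK081941 read -3.62 and -4.00 in control and -4.82 and -5.41 in G2-EC-KO, a difference of -1.31 (SE 0.25). In these 3 transcripts the distance between replicates of a group was at most 0.69.

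The other 3 of this set had replicates that lay close together and differences of nearly 1 log2 unit. AK030009 read -4.44 and -4.31 in control and -5.30 and -5.38 in G2-EC-KO, which is 1.96-fold higher in control (log2 difference -0.97, SE 0.12). NAP038480-1 read -4.33 and -4.46 against -5.28 and -5.48, a difference of -0.98 (SE 0.13). AK041221 read -4.58 and -4.61 against -5.52 and -5.42, a difference of -0.87 (SE 0.11) and the smallest of the 17. The SD within a group was at most 0.14 in these 3 transcripts (n = 2 in each group). Their G2-EC-KO signals, between 26.5 and 33.0 intensity units, stood little above the lowest signals flagged as well above background.

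TC1641772 was the second brightest transcript of the 17 by its control mean, -3.52 ± 0.14 (SD, n = 2). It read -3.42 and -3.62 in control, -5.15 on G2-EC-KO replicate 1, where it was well above background, and -6.41 on G2-EC-KO replicate 2, where it was not. The G2-EC-KO arrays therefore lay further apart than in most of the 17. The fitted log2 difference was -2.26 (SE 0.43), and with the unmeasured value raised to the lowest signal well above background it was -2.02.

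Of the 10 transcripts not well above background on either G2-EC-KO array, AK009809 had the widest gap, 2.98. It read -4.70 and -4.01 in control and -8.01 and -7.67 in G2-EC-KO, and its floored fold was 2.80. Its fitted difference of -3.49 (SE 0.27) would be an 11.2-fold change, but it rests on G2-EC-KO signals of 5.01 and 5.78 intensity units with error estimates of 4.98 and 4.08. AK016108 read -4.45 and -5.49 in control and -8.06 and -8.26 in G2-EC-KO. Its floored fold was 1.83, and its control arrays, at 64.7 and 31.9 intensity units, lay further apart than for any other of the 17. The Ensembl transcript ENSMUST00000072437 read -4.86 and -4.07 against -7.14 and -8.04, with a floored fold of 2.59. In these 3 transcripts at least 1 of the G2-EC-KO spots was not significantly positive, so their fitted differences, the lowest of the 17, have no measured end.

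ENSMUST00000103309 and ENSMUST00000038960 had nearly equal values on the control arrays. The former read -4.39 and -4.40 in control and -6.36 and -6.12 in G2-EC-KO, with a floored fold of 2.72. The latter read -4.88 and -4.86 against -6.84 and -6.29, with a floored fold of 1.96. Both had 1 measured group with an SD of at most 0.017 (n = 2) and another below the lowest signal flagged as well above background. The fourth Ensembl transcript, ENSMUST00000062809, read -5.17 and -4.88 against -6.68 and -7.26, with a floored fold of 1.76.

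AK084485 had the largest floored fold of the 10, at 3.52. It read -4.47 and -3.53 in control and -5.70 and -6.67 in G2-EC-KO, so that replicates of both groups lay nearly 1 log2 unit apart. The expressed sequence tag BM216128 read -4.83 and -5.25 against -7.22 and -6.29, with a floored fold of 1.74. AK032412 read -4.76 and -5.20 against -6.36 and -6.03, with a floored fold of 1.81. AF001906 was the dimmest of the 17, with -5.25 and -5.11 in control and -6.07 and -8.02 in G2-EC-KO. Its floored fold was 1.58, and its G2-EC-KO values differed more than those of any other transcript of the 17. Without G2-EC-KO replicate 2 its difference moved from -1.87 to -0.89, and without G2-EC-KO replicate 1 to -2.84. Leaving out any 1 array kept the difference of each of the other 16 transcripts within 1.5 times its value on all 4.

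Neither replicate of a group was high or low across the 17. On control replicate 2, 9 of them read higher than on control replicate 1, and 7 read higher on G2-EC-KO replicate 2 than on replicate 1. The median over the 17 was -4.47 and -4.40 in control and -6.07 and -6.29 in G2-EC-KO. Replicates of the 17 agreed less well than those of the eligible unnamed probes, which are brighter on the whole. The distances were not compared at like level. The median distance between the control arrays was 0.38 for the 17 and 0.15 for all eligible unnamed probes, and between the G2-EC-KO arrays 0.33 and 0.21. Over all eligible unnamed probes the median difference of G2-EC-KO from control was -0.077, against -1.71 over the 17, which the rule fixes.

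**Figure D2:**
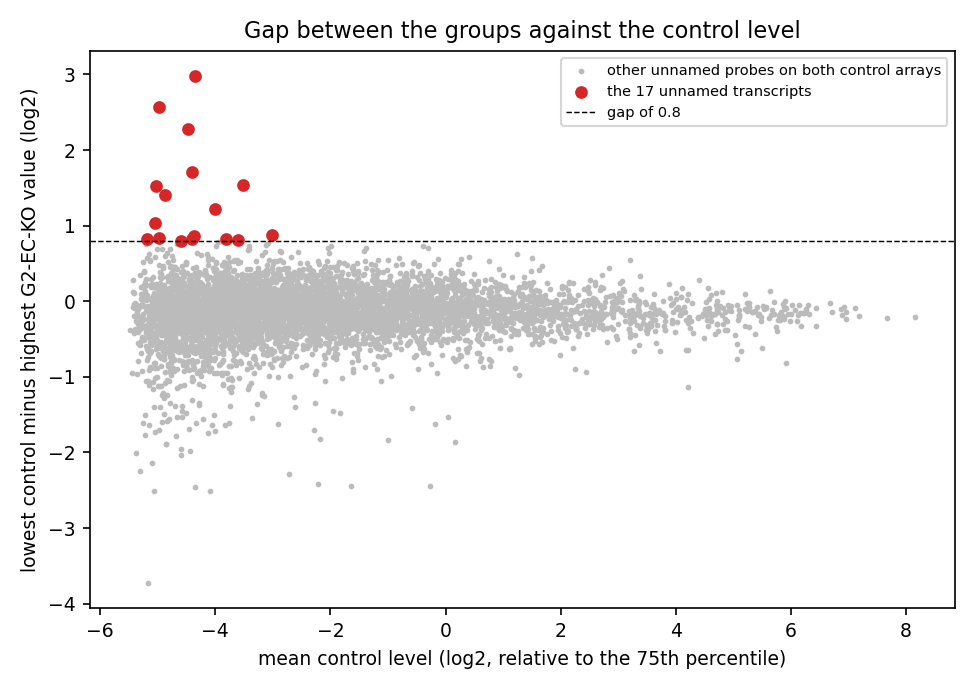
Gap between the lowest control and the highest G2-EC-KO value (log2) against the mean control level (log2, relative to the 75th percentile), for the 5645 unnamed probes well above background on both control arrays; red points are the 17 transcripts and the dashed line is the gap of 0.8. The 17 sit at control levels between -5.18 and -3.01, at the dim end of a range that reaches 8.16.

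Gaps just inside and just outside 0.8 were close to each other. Inside it, AF001906 had a gap of 0.82, AK015995 one of 0.81 and AK041221 one of 0.80, with mean differences of -1.87, -1.31 and -0.87. Outside it, AK036773 missed with a gap of 0.7996, with values of -3.87 and -3.90 in control and -4.70 and -4.72 in G2-EC-KO. AK086846 followed with a gap of 0.79 and ENSMUST00000116362 with one of 0.77. The mean differences of these 3 were -0.82, -0.81 and -0.91. Gaps above 0 of any size in this direction, that is groups that do not overlap, were found at 31.9% of the eligible unnamed probes. No like share is given for other probes or for the opposite direction. This share therefore does not show a lowering particular to unnamed transcripts.

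The same rule applied to transcripts with an NM_, NR_ or XM_ accession took 16 of 20117, or 0.0795%. These probes are brighter on the whole. Within the range of control means of the 17, the rule took 17 of 2304 unnamed probes (0.738%) and 13 of 3684 with such an accession (0.353%). In the opposite direction, with probes well above background on both G2-EC-KO arrays, it took 27 of 5766 unnamed probes (0.468%) and 155 of 20435 with such an accession (0.759%). The 17 are thus fewer than the unnamed transcripts found higher in G2-EC-KO by the mirrored rule. In the limma fit over all 26900 probes tested, 1 probe (0.00372%) passed an adjusted p of 0.05 and it was higher in G2-EC-KO. No probe was lower (0%), the 17 included, while 1273 probes were lower at an unadjusted p under 0.05 (limma). With median centring or quantile normalization 1 probe was called lower, NM_018852, which is not among the 17 and is named here after its values were seen.

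The spots of the 17 transcripts were not spread evenly over the array. The grid of 532 rows and 85 columns was divided into 8 blocks, 4 bands of rows by 2 sides, after the places of the 17 had been seen. The block of rows 267 to 399 and columns 43 to 85 held 12 of the 17, or 70.6%, and 13.6% of the eligible unnamed probes. The rule took 1.56% of the eligible unnamed probes in this block and 0.103% of the 4877 outside it. It also held 10 of the 16 transcripts with an NM_, NR_ or XM_ accession that the same rule took. By the mirrored rule the block held 4 of the 27 unnamed transcripts higher in G2-EC-KO, and 11 of those 27 lay in the left block of the same rows.

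Several of the 17 were near neighbours on the grid although they carry different kinds of accession. AK009809 lay at row 330 and ENSMUST00000038960 at row 329 of column 51. AK084485 lay at row 380 and NAP038480-1 at row 379 of column 69. ENSMUST00000062809, at row 358 and column 71, and AK032412, at row 360 and column 72, were the remaining pair of the 17 that were at most 2 rows and 1 column apart. Outside the block lay 5 transcripts, AK016108, BM216128, AK038639, AK015995 and AK041221. Of these, AK038639, AK015995 and AK041221 were measured on all 4 arrays, and their row and column were 343 and 11, 272 and 23, and 186 and 71. AK038639 and AK015995 thus lay in the left block of rows 267 to 399, so that 14 of the 17 lay in this band of rows.

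**Figure D3:**
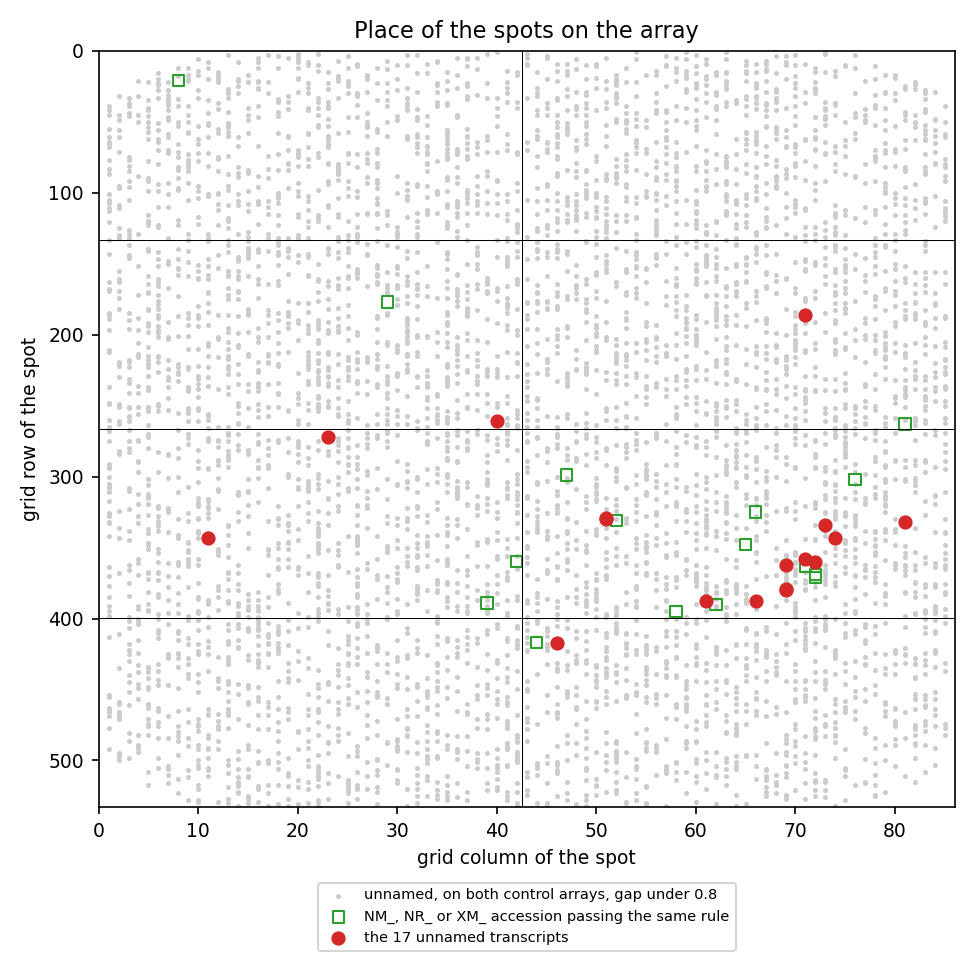
Place of the spots on the array by grid row and column, with lines between the 8 blocks; grey points are unnamed probes well above background on both control arrays, red points the 17 transcripts and green squares the 16 transcripts with an NM_, NR_ or XM_ accession taken by the same rule. The right block of rows 267 to 399 holds 12 red points and 10 green squares.

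Measures that do not use the contrast between the groups differed along the array, and some of them were highest in this block and others in the block to its left. Probes not well above background on any of the other 3 arrays were flagged on control replicate 1 alone in 7.15% of cases in the block and in 0.113% to 3.75% in the other 7 blocks. For control replicate 2 these shares were 10.8% in the block and 0.538% to 7.03% elsewhere, and for G2-EC-KO replicate 1 they were 8.04% and 0.676% to 4.19%. G2-EC-KO replicate 2 did not follow this order, with 3.82% in the block and its highest share, 16.0%, in the left block of the same rows. Isolated bright spots were thus more frequent in the block than in any other on 3 of the 4 arrays, and not on G2-EC-KO replicate 2. Among dim probes, those with a mean level between -6 and -3, the control arrays lay at least 0.8 apart at 14.6% in the block and at 3.38% to 13.2% elsewhere. The G2-EC-KO arrays lay that far apart most often in the left block of the same rows, at 19.9%, and next most often in the right block, while the lowest share of any block was 5.31%. The brightest negative control spots on the control arrays also lay in that left block, at 138.5 and 138 intensity units net of local background, against 48.5 and 40.5 in the right block. The local background beside the spots of the 17 was alike in both groups, from 33.0 to 42.0 intensity units in control and from 32.0 to 44.5 in G2-EC-KO. The part that the place on the array has in the differences of the 17 was not tested. The differences of the 12 transcripts in the block are to be read beside these values, and so are those of AK038639 and AK015995 in the left block. The control arrays lay at other positions of the slide than the G2-EC-KO arrays, so that slide position and group cannot be told apart.

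How background was treated set the size of the differences more than scaling did. With normexp background correction on the spot medians, which adds an offset of 50 intensity units, the differences of the 17 ran from -0.87 to -0.21, and 0 of them kept a gap of 0.8. In the authors' deposited value table, which is the spot median less the local background plus a constant of 16, they ran from -2.31 to -0.52. There 5 kept the gap, namely AK009809, AK016108, ENSMUST00000072437, ENSMUST00000103309 and TC1641772. With every value below the lowest signal well above background raised to that signal, an alternative chosen after the data were seen, 12 kept it. Under each of these the differences of all 17 stayed below 0, on the same spots that chose them.

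**Figure D4:**
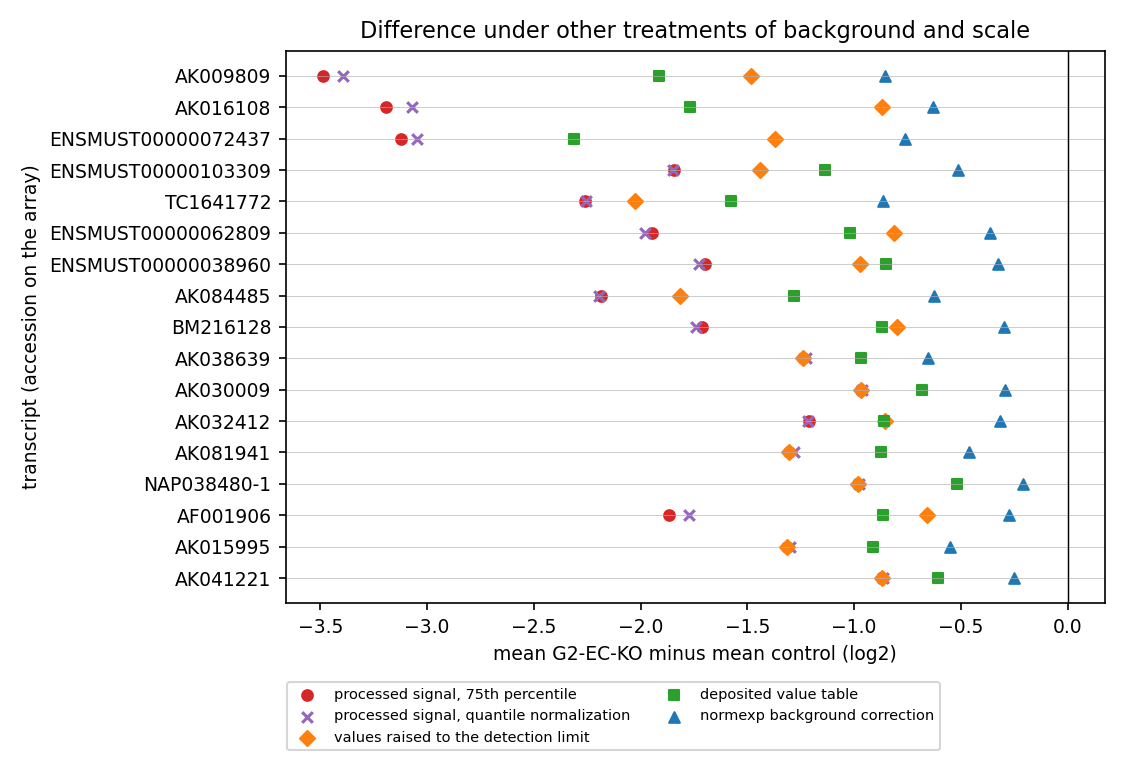
Mean G2-EC-KO minus mean control level (log2) of each of the 17 transcripts under 5 treatments of background and scale. Each point lies below 0, and the normexp values (blue triangles), between -0.87 and -0.21, lie nearest to it in each row.

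The samples carried the markers of endothelium, and those of other cell types as well. All 15 endothelial markers listed, such as the adhesion gene Pecam1 and the cadherin gene Cdh5, were well above background on all 4 arrays. The log2 of their summed level was 9.31 and 9.43 in control and 9.36 and 9.37 in G2-EC-KO, with a median difference of 0.0066. Also well above background on all 4 arrays were all 12 cardiomyocyte, 10 fibroblast, 10 pericyte and smooth muscle and 12 cell cycle markers. In each of the remaining lists some were not. The log2 of the summed level on control replicate 1 was 7.34 for fibroblast and 6.57 for cardiomyocyte markers. Detection of endothelial markers thus does not show that the samples were free of other cells. Lists with a median below 0 were lymphatic endothelium (-0.22, 5 of 7 genes lower), pericyte and smooth muscle (-0.15, 9 of 10), lymphocyte (-0.13, 8 of 11) and mesothelium and neural cells (-0.012, 5 of 9). Medians were above 0 for cell cycle genes (1.5), blood and platelets (0.49), cardiomyocyte (0.36), macrophage and monocyte (0.33), endocardium (0.26), granulocyte (0.14) and fibroblast (0.14). Of these lists, 0 genes had a gap of at least 0.8 in the direction of the 17. Their symbols came by RefSeq accession, which the rule for the 17 leaves out. Among probes with an NM_, NR_ or XM_ accession the gap was met by 0.0795%, so that 0 sets no contrast with the 17. The log2 of the summed level of lymphocyte markers was 0.31 and -0.71 in control and -0.22 and -0.44 in G2-EC-KO, so that the groups overlapped. That of lymphatic markers was 5.19 and 5.62 in control and 5.17 and 5.06 in G2-EC-KO. That of pericyte and smooth muscle markers was 8.40 and 8.26 against 8.43 and 7.96. The part of these cell types in the differences of the 17 was not tested. In such bulk samples fewer cells of a type and less RNA per cell cannot be told apart.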

How the data were processed

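Each of 4 samples of total RNA was labelled with Cy3 and hybridised to 1 array of design 014868, per the labels' protocols and the file headers. The authors deposited linear spot intensity values, which were quantified with Agilent Feature Extraction 10.7.3.1 per the file headers, and the submitters' processing notes name version 10.5. The headers hold statistics of a spatial and a multiplicative detrending, and the values are not normalized between arrays. Spots flagged as outliers (87 to 101 per array) were dropped. Processed signals were turned to log2, less each array's own 75th percentile over non-control spots, and averaged over the spots of a probe. Standard errors and counts over all probes come from limma 3.58.1 in R 4.3.3. The fit used lmFit and eBayes on group alone, for probes well above background on at least 2 arrays, with Benjamini-Hochberg adjustment. It was also run on simulated data. No recovery rate is given here for differences of the reported size and level, so that run does not show how well the fit finds them. The normexp alternative used spot medians in place of spot means. Symbols came by accession from a RefSeq table of GRCm38.p6 for 26933 probes, and no coordinates are given. The rule for named transcripts gives every member. Cell types were described by 12 marker lists, using for each gene its brightest probe. The members and lists were chosen with earlier results of these data known.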

Additional observations from a re-analysis of the deposited data

How the results depend on the processing

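The number of transcripts taken by the rule, 17, stayed within 1.5 times of that with median centring (14), quantile normalization (15), outlier spots kept (17) and values raised to the detection limit (12, chosen after seeing the data). It was 0 with normexp background correction, 5 with the deposited value table, 6 with probes well above background on all 4 arrays, 78 without a filter on background, 103 at a gap of at least 0.5, 9 at a gap of at least 1.0, and 5 outside rows 267 to 399 and columns 43 to 85 (chosen after seeing the data). Leaving out 1 array gave 55 to 232, since fewer arrays must be apart, and all 17 were among them each time, as the rule makes certain. The differences of the 17 stayed below 0 under each alternative run, which the rule fixes for arrays left out and for the replicate block. The other alternatives use the same spots that chose the 17, so the sign is no separate support. The differences moved by more than the larger SD of the groups in 17 of 17 with normexp, in 13 with the value table (not AF001906, AK015995, AK038639 and TC1641772) and in 8 with values raised to the detection limit. In the limma fit 1 probe passed; 2 passed with median centring and with quantile normalization (1 higher and 1 lower) and with normexp (2 higher), 0 with probes well above background on all 4 arrays, without a filter and with an intensity trend in the variance, and 0 to 8 without 1 array. The replicate numbers are not said to pair samples. The differences between replicates 1 and 2 correlated at 0.044 between the groups over 26889 probes, and with the replicate block 0 probes passed, while 2698 had an unadjusted p under 0.05 (limma). With the block the differences of the 17 were as without it, which the equal number of arrays per group makes certain. Depth is limited by signal over background: 10 of the 17 were well above background on neither G2-EC-KO array.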
